A study of Mus musculus with 8 samples.

Results

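The semaphorins, plexins and neuropilins form a ligand and receptor system, and their 31 genes were followed in the skull roof of newborn mice lacking the potassium channel subunit Girk3. The genes were taken by symbol from the 49315 gene IDs of the count table: 20 semaphorins (Sema with a digit and a letter), 9 plexins (Plxn with a letter and a digit) and the neuropilins Nrp1 and Nrp2. The libraries came from calvaria of 4 Girk3 knockout mice (KO; Girk3 is encoded by Kcnj9) and of 4 wild-type mice (WT), all female C57BL6 animals 2 to 3 days old, each taken as whole frozen tissue for bulk RNA sequencing. The series title calls the deletion global, so the loss is not limited to a bone cell type. Nothing in the labels says whether the mice of a genotype came from separate litters, and the p-values measure only the spread between these samples.

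Semaphorins are cues that share an extracellular sema domain, and plexins are the receptors whose cytoplasmic part acts on small GTPases to change adhesion and the cytoskeleton. Class 3 semaphorins are secreted, and most need a neuropilin beside an A plexin, whereas classes 4 to 7 are held at the membrane and bind plexins directly. The system was first described in axon guidance and also acts in vessels, immune cells and bone, where Sema3a from cells of the osteoblast lineage restrains osteoclasts through Nrp1, Sema4d from osteoclasts acts on Plxnb1 of osteoblasts, and Sema6d signals through Plxna1 in osteoclast precursors.

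Of the 31 genes, Sema6a rose in KO calvaria and the other 30 did not pass the test. All 31 passed the filter on low counts, with 26 counts or more in every library. The threshold was an adjusted p of 0.05 in edgeR's quasi-likelihood test, with adjustment over all 17743 tested genes. Across those genes 1.32% were called, 0.445% higher and 0.874% lower in KO. The 1 call among 31 members (3.23%) was also made by DESeq2, which called 5.37% of all genes, and by limma-voom, which called 0.941%. An unadjusted p under 0.05 was reached by 6 of 31 members (19.4%) and by 17.4% of all tested genes, so the share of small p-values was near the background. Of the members 18 (58.1%) had a log2 change above 0, as did 49.9% of all tested genes. The median log2 change of the members was 0.04, and that of all tested genes was -0.000295. Log2 changes are KO over WT, with a standard error (SE) from the fit.

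**Figure D1:**
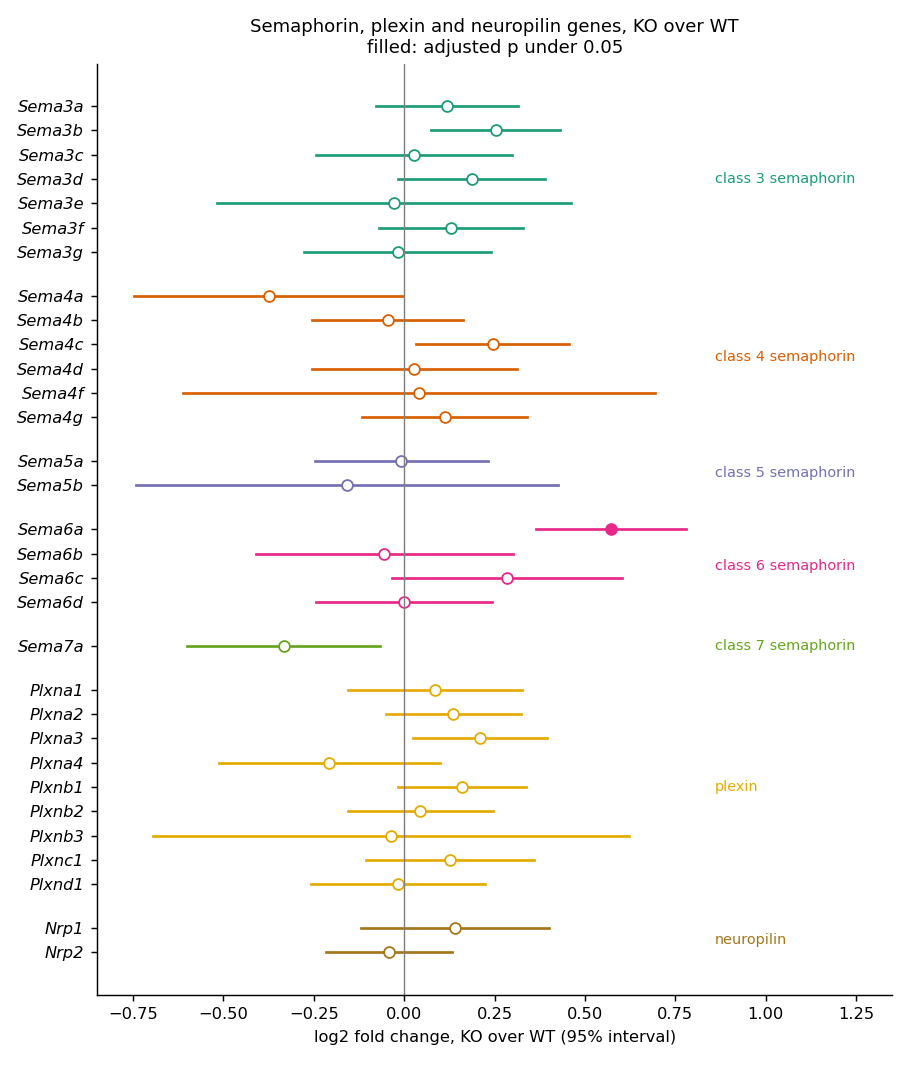
Log2 fold change (KO over WT) of each of the 31 genes with its 95% interval, grouped by class, with a filled point where the adjusted p was under 0.05. Sema6a, at 0.57, is the only filled point, and 24 of the 31 intervals lie within a 1.5-fold change in either direction.

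Depth and tissue composition bear on all values below. The KO libraries held 35.4 M to 54.3 M counts and the WT libraries 42.7 M to 49.6 M. Values of single libraries are given as CPM, the count relative to the TMM-scaled library total, where 1 count is worth 0.0184 to 0.0283 CPM before that scaling. Sums over a marker list, here and below, are CPM relative to the library total without TMM scaling, so they are on a slightly different scale. Kcnj9 held 2 to 9 counts in KO and 0 to 4 in WT libraries, so it does not check the labels, and KO means the libraries labelled so. The 7 osteoblast markers summed to 74973 to 99886 CPM in KO and 81429 to 96905 CPM in WT. Most of this was Col1a1, with TMM-scaled means of 78420 CPM in KO and 85440 CPM in WT. The least abundant of the 7, Ifitm5, averaged 146 CPM in KO and 143 CPM in WT, so each marker was present. Of the 7, 1, Bglap, was called lower in KO, where 0.874% of all tested genes were. Its adjusted p was 0.0383 in edgeR, 0.000402 in DESeq2 and 0.0610 in limma-voom, which did not call it. The 8 skeletal muscle markers were low in KO replicates 2 and 3 and in WT replicate 3, with mean log2 CPM of 0.00114 to 3.87, against 6.002 to 7.90 in the other 5 libraries. Sums of blood endothelial markers overlapped between groups, at 516 to 607 CPM in KO and 563 to 617 CPM in WT. All 7 had a log2 change below 0 (median -0.12), but none was called and none had an unadjusted p under 0.05. Sums of neuron markers were 15.7 to 28.1 CPM in KO and 12.1 to 35.4 CPM in WT. Their overlap rested on WT replicate 1, at 35.4 CPM, and every KO library was above every other WT library. Of the 6 tested neuron markers 3 had a log2 change above 0 (median 0.05), and none was called. No marker of these lists was at 0 in all libraries.

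Sema6a encodes a transmembrane class 6 semaphorin that binds Plxna2 and Plxna4 and guides axons and migrating neurons. It lies on chromosome 18 from 47235598 to 47368870 on the minus strand (GRCm38/mm10), and no exon base of it overlaps another annotated gene. Its level was 36.5, 40.0, 35.5 and 28.2 CPM in KO replicates 1 to 4, against 24.3, 23.7, 23.1 and 23.4 CPM in WT replicates 1 to 4. Every KO library was above every WT library, and the KO libraries were spread more widely. Means were 35.1 ± 4.94 CPM in KO and 23.6 ± 0.476 CPM in WT (SD, n = 4 each). The log2 change was 0.57 ± 0.0952 (SE, edgeR adjusted p = 0.0154), a 1.49-fold difference with a 95% interval of 1.29 to 1.72. Among all tested genes the groups were apart with KO higher in 4.63% and with KO lower in 5.96%. Among the members Sema6a was apart with KO higher and no gene was apart with KO lower.

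The direction of Sema6a held under all 17 alternatives, and its call under 11 of them. Leaving out KO replicate 2 or 3 or WT replicate 2, 3 or 4 gave adjusted p of 0.0513, 0.0524, 0.0574, 0.0537 and 0.0511, with log2 changes of 0.51 to 0.57. The share of all tested genes called was 0.902%, 0.316%, 0.453% and 3.37% without KO replicates 1 to 4 in turn, and 1.34%, 0.434%, 0.413% and 0.58% without WT replicates 1 to 4. Without KO replicate 4, the lowest of its group, the log2 change was 0.67 (adjusted p = 0.00116). With the muscle marker level as a covariate it was 0.57 ± 0.0983 (SE, adjusted p = 0.0160), where 1.83% of all genes were called. Sema6a also passed with RLE factors (1.32% of genes called), library totals alone (1.19%), no filter (1.06%), a filter of 1 CPM in 4 libraries (1.76%) and a replicate block (0.71%). Without the 3 libraries low in muscle markers, a setting chosen after seeing the data, it was 0.45 ± 0.121 (SE, adjusted p = 0.377) with 2 KO and 3 WT libraries, where 8 genes in all (0.0434% of those tested) were called.

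**Figure D2:**
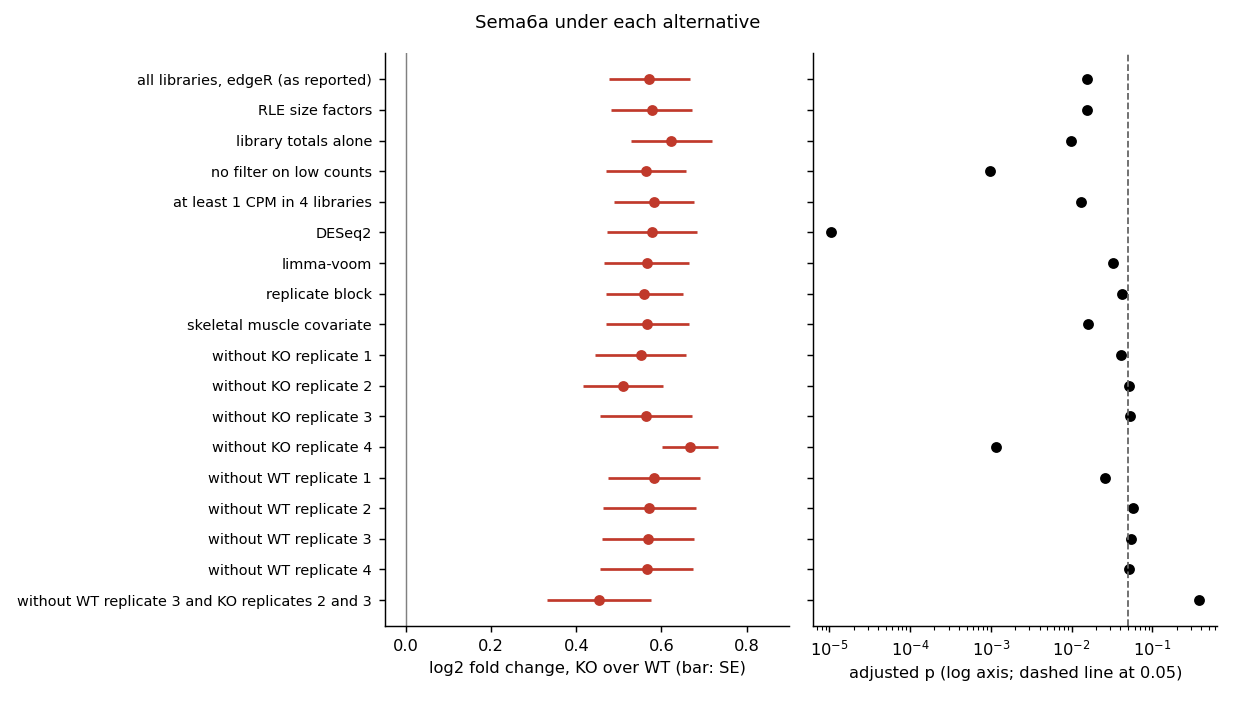
Sema6a under each alternative setting, with the log2 fold change (KO over WT) and its SE on the left and the adjusted p on a log axis on the right. All log2 changes lie between 0.45 and 0.67, and 6 of the 17 alternatives lie right of the dashed line at 0.05.

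The receptors of Sema6a did not pass. Plxna2, a receptor for Sema6a and, with neuropilins, for class 3 semaphorins, held 72.6, 70.7, 67.8 and 68.2 CPM in KO replicates 1 to 4 and 54.3, 62.1, 64.5 and 73.3 CPM in WT replicates 1 to 4. The KO libraries lay close together, above 3 of the 4 WT libraries and below the highest, so the groups overlapped. The log2 change was 0.14 ± 0.0853 (SE, adjusted p = 0.437), with a 95% interval of -0.05 to 0.32 on the log2 scale. Plxna2 is on chromosome 1, as Kcnj9 is, from 194618218 to 194816869 and 22.3 Mb away. Plxna4, the other receptor, held 13.8, 17.2, 14.8 and 12.4 CPM in KO and 13.5, 14.9, 17.996 and 20.8 CPM in WT replicates 1 to 4. Its groups overlapped, with a log2 change of -0.21 ± 0.14 (SE, adjusted p = 0.477) and an interval of 0.701-fold to 1.07-fold. Counting by strand is not stated. The antisense gene Plxna4os3, which covers 0.78% of the Plxna4 exon bases, held 0 counts in all libraries. These counts do not show how reads in the shared bases were assigned.

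The other class 6 genes are transmembrane ligands as well, and none passed. Sema6c held 37.4, 32.4, 26.6 and 41.7 CPM in KO replicates 1 to 4 and 32.2, 30.0, 22.4 and 28.7 CPM in WT replicates 1 to 4, with a log2 change of 0.29 ± 0.144 (SE, adjusted p = 0.335). In each group its lowest values were those of the libraries low in muscle markers. Sema6d, the ligand of Plxna1 and the most abundant class 6 gene per length of exon, averaged 99.9 ± 13.0 CPM in KO and 99.9 ± 13.2 CPM in WT (SD, n = 4 each), and its interval ran from 0.845-fold to 1.18-fold. Sema6b averaged 9.12 ± 2.35 CPM in KO and 9.46 ± 1.16 CPM in WT (SD, n = 4 each), so that Sema6a was the class 6 gene with the largest log2 change.

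**Figure D3:**
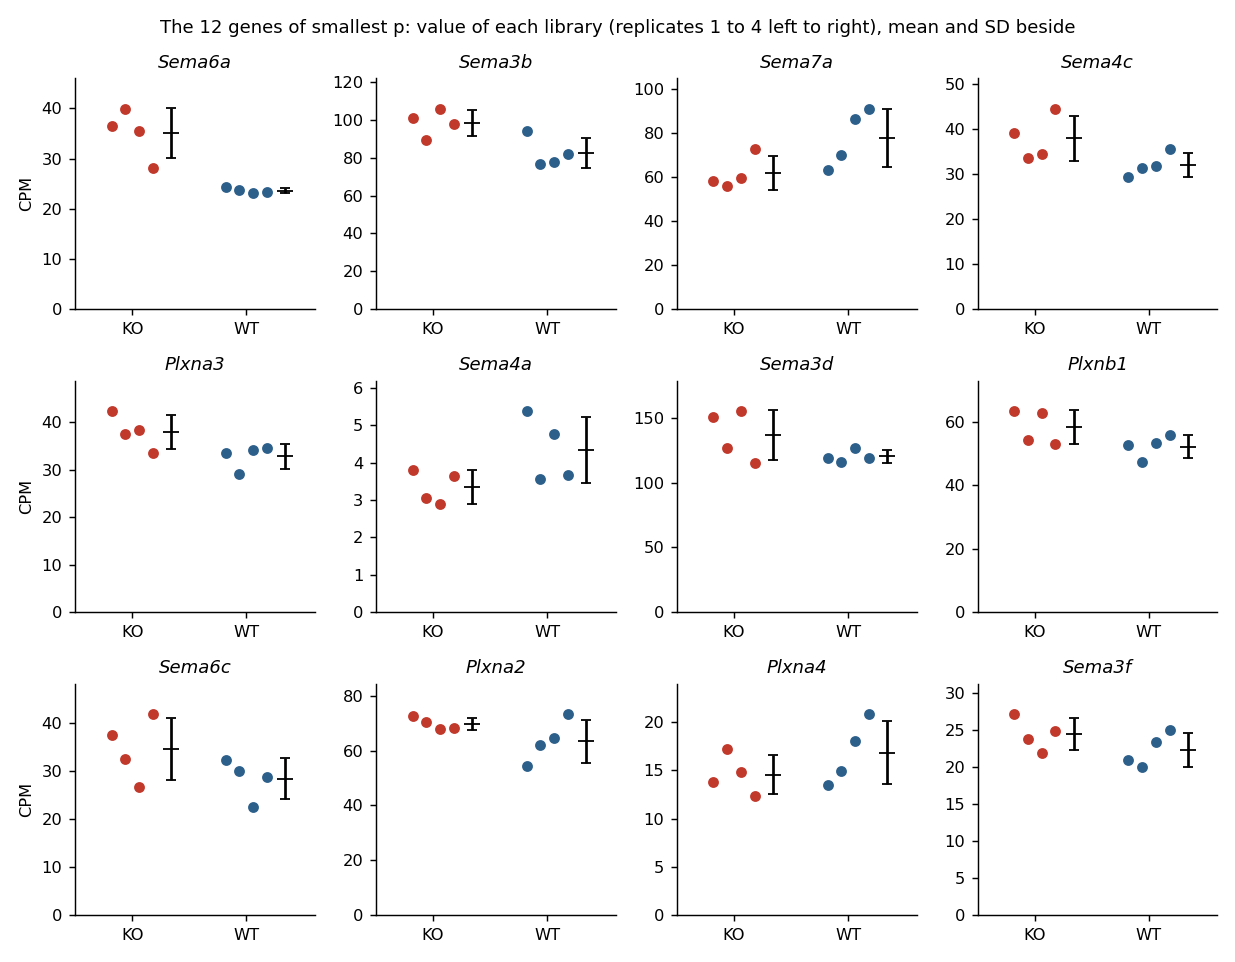
CPM of each library for the 12 genes of smallest p, KO left of WT, with the mean and SD beside the points of each group and the axis of each panel starting at 0. Only in the Sema6a panel do all 4 KO points lie apart from all 4 WT points.

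Of the 7 class 3 genes, which encode the secreted semaphorins, none passed and 5 had a log2 change above 0 (median 0.12). Sema3b, a ligand of neuropilins studied as a tumour suppressor, had the second smallest p of all members. It held 101, 89.2, 106 and 97.9 CPM in KO replicates 1 to 4 and 94.0, 76.6, 77.7 and 82.2 CPM in WT replicates 1 to 4. WT replicate 1 lay above KO replicate 2, so the groups overlapped, and the log2 change was 0.25 ± 0.0821 (SE, adjusted p = 0.152; 0.0509 in DESeq2). Sema3d, which guides neural crest and endothelial cells, held 150.5, 127, 155 and 115 CPM in KO and 119, 116, 127 and 119 CPM in WT replicates 1 to 4. KO replicates 1 and 3 were high and KO replicate 4 was the lowest of the 8 libraries, with a log2 change of 0.19 ± 0.0935 (SE, adjusted p = 0.326). Sema3f, a ligand of Nrp2, held 27.1, 23.8, 22.0 and 24.8 CPM in KO and 20.9, 20.003, 23.3 and 25.01 CPM in WT, with a log2 change of 0.13 ± 0.0918 (SE, adjusted p = 0.494).

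Sema3a, the class 3 gene best known in bone, held 50.2, 58.9, 58.4 and 45.4 CPM in KO replicates 1 to 4 and 44.9, 48.3, 50.8 and 52.2 CPM in WT replicates 1 to 4. The groups overlapped and the log2 change was 0.12 ± 0.0908 (SE, adjusted p = 0.532), with an interval of 0.947-fold to 1.24-fold. Sema3c averaged 79.3 ± 9.49 CPM in KO and 77.8 ± 13.4 CPM in WT, and Sema3g 7.30 ± 0.907 CPM in KO and 7.38 ± 0.665 CPM in WT (SD, n = 4 each). Sema3e, which binds Plxnd1 without a neuropilin, had the lowest mean of all members per length, at 41 to 83 counts a library. Its WT libraries held 1.39 to 1.48 CPM and its KO libraries 0.887 to 1.78 CPM. Sema3d, Sema3a, Sema3e and Sema3c lie in this order on chromosome 5 with gaps of 0.536, 0.423 and 3.32 Mb, and Sema3b and Sema3f lie 72.3 kb apart on chromosome 9. Levels differed between some of these neighbours. Per kilobase of exon, Sema3a averaged 3.84 ± 0.474 CPM in KO and 3.54 ± 0.231 CPM in WT (SD, n = 4 each). Its neighbour Sema3e averaged 0.151 ± 0.0403 CPM in KO and 0.154 ± 0.00403 CPM in WT. Sema3d and Sema3c, the outer genes of the group on chromosome 5, were nearer to each other, at 14.0 ± 0.558 and 10.9 ± 1.88 CPM in WT.

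The 6 class 4 genes are transmembrane ligands, several of them made by immune cells. Sema4d, which osteoclasts release to act on Plxnb1 of osteoblasts, held 79.5, 93.4, 111 and 75.3 CPM in KO replicates 1 to 4 and 73.1, 87.7, 100.5 and 91.5 CPM in WT replicates 1 to 4. In both groups the libraries low in muscle markers were the highest, and the groups overlapped (log2 change 0.03 ± 0.129, SE, adjusted p = 0.935). Sema4c held 39.2, 33.7, 34.5 and 44.6 CPM in KO and 29.3, 31.4, 31.8 and 35.7 CPM in WT replicates 1 to 4, with WT replicate 4 inside the KO range. Its log2 change was 0.24 ± 0.0971 (SE, adjusted p = 0.226), and 7.27% of its exon bases overlap D430040D24Rik on the opposite strand, which held up to 187 counts.

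Sema4a, a ligand that acts on T cells and vessels, and Sema7a, the class 7 ligand held by a lipid anchor, had the lowest log2 changes of the members without passing. Sema7a held 58.1, 56.1, 59.6 and 72.9 CPM in KO replicates 1 to 4 and 63.2, 70.1, 86.1 and 91.0 CPM in WT replicates 1 to 4. KO replicates 1 to 3 were below every WT library and KO replicate 4 was not, with a log2 change of -0.33 ± 0.122 (SE, adjusted p = 0.195). Sema4a held 3.81, 3.05, 2.89 and 3.64 CPM in KO and 5.38, 3.56, 4.76 and 3.66 CPM in WT, with overlapping groups and a log2 change of -0.37 ± 0.171 (SE, adjusted p = 0.282).

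Of the 7 macrophage markers 1, Lyz2, fell, where 0.874% of all tested genes were called lower, and the other 6 did not pass. All 7 had a log2 change below 0 (median -0.43), whereas 49.9% of all tested genes were above 0. Their sum was 428 to 536 CPM in KO and 547 to 731 CPM in WT. Osteoclast markers summed to 3751 to 5998 CPM in KO and 5420 to 8161 CPM in WT, with all 7 below 0 and none called by edgeR or limma-voom. DESeq2 called 4 of the 7 macrophage and 4 of the 7 osteoclast markers, where it called 5.37% of all genes. In edgeR an unadjusted p under 0.05 was reached by 5 of the macrophage and 6 of the osteoclast markers, and by 17.4% of all tested genes. No marker of either list was at 0 in all libraries. The part of these cells in the values of Sema7a, Sema4a and Sema4d was not tested, and in bulk tissue fewer cells of a type and less RNA per cell cannot be told apart. The remaining class 4 genes, Sema4b, Sema4f and Sema4g, and the class 5 genes Sema5a and Sema5b, whose proteins carry thrombospondin repeats, had log2 changes of -0.16 to 0.11. Sema5a held 87.6 to 124 CPM in KO and 92.6 to 121 CPM in WT.

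None of the 9 plexins passed, with log2 changes of -0.21 to 0.21. Plxna3, a receptor for class 3 semaphorins together with Nrp2, had the smallest p of them. It held 42.3, 37.6, 38.3 and 33.5 CPM in KO replicates 1 to 4 and 33.5, 29.0, 34.1 and 34.7 CPM in WT replicates 1 to 4. KO replicate 4 lay within the WT range, and the log2 change was 0.21 ± 0.0851 (SE, adjusted p = 0.236). Plxnb1, the receptor of Sema4d, held 63.2, 54.2, 62.8 and 53.0 CPM in KO and 52.7, 47.1, 53.2 and 55.7 CPM in WT replicates 1 to 4. KO replicates 1 and 3 were above all WT libraries and the other KO libraries were among them, with a log2 change of 0.16 ± 0.0813 (SE, adjusted p = 0.332).

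Plxna1, the receptor of Sema6d, averaged 85.8 ± 5.73 CPM in KO and 80.8 ± 14.2 CPM in WT, and Plxnc1, the receptor of Sema7a, 21.2 ± 1.40 CPM in KO and 19.4 ± 3.08 CPM in WT (SD, n = 4 each). Of the Plxna1 exon bases 10.7% overlap Gm26811 on the opposite strand, at up to 55 counts a library. Plxnd1, the receptor of Sema3e on endothelial cells, and Plxnb2, a receptor of class 4 semaphorins, were the most abundant plexins and differed little. Plxnd1 averaged 233 ± 23.96 CPM in KO and 235 ± 37.1 CPM in WT (SD, n = 4 each), with an interval of 0.837-fold to 1.17-fold. Plxnb2 averaged 235 ± 18.1 CPM in KO and 228 ± 27.4 CPM in WT (SD, n = 4 each), with an interval of 0.898-fold to 1.18-fold. Plxnb3, a plexin of glial cells, held 26 to 64 counts a library, with an interval of 0.618-fold to 1.54-fold and a coefficient of variation of 36.6% in KO and 28.7% in WT.

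The neuropilins bind class 3 semaphorins and also members of the VEGF family. Nrp2, the receptor of Sema3f, held 542.5, 516, 537 and 474 CPM in KO replicates 1 to 4 and 481, 508, 561 and 579 CPM in WT replicates 1 to 4. KO replicate 4 was below every WT library and WT replicates 3 and 4 were above every KO library, with the other 5 libraries between them, and the groups overlapped, with a log2 change of -0.04 ± 0.0805 (SE, adjusted p = 0.835) and an interval of 0.86-fold to 1.10-fold. Nrp1, the receptor of Sema3a, held 62.7, 59.6, 54.5 and 47.1 CPM in KO and 41.0, 48.3, 53.9 and 60.1 CPM in WT replicates 1 to 4. Its groups overlapped, with a log2 change of 0.14 ± 0.119 (SE, adjusted p = 0.582) and an interval of 0.92-fold to 1.32-fold.

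Levels were compared between genes as CPM per kilobase of exon, using the merged exons of GENCODE release M21. Nrp2 was the highest of the 31, at 43.7 ± 2.64 CPM per kilobase in KO and 45.0 ± 3.86 in WT (SD, n = 4 each). It was followed in WT by Plxnd1 at 32.2 ± 5.08, Plxnb2 at 29.5 ± 3.54, Sema7a at 23.5 ± 3.98 and Sema3b at 17.3 ± 1.67 CPM per kilobase. In KO Sema3b stood before Sema7a, at 20.6 ± 1.47 and 18.7 ± 2.31 CPM per kilobase. The lowest were Sema4f, Plxnb3 and Sema3e, at 0.246, 0.163 and 0.151 CPM per kilobase in KO and 0.239, 0.166 and 0.154 in WT.

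The range between the highest and lowest member was far wider than any difference between genotypes. Of the 30 pairs of neighbours in the WT order, 22 had overlapping ranges over the 4 libraries. Nrp2 was apart from Plxnd1, and Sema3b from Sema3d, but Plxnd1, Plxnb2 and Sema7a each overlapped the next gene. At the low end Sema4f overlapped Plxnb3. The Sema3e range, 0.149 to 0.159 CPM per kilobase, lay within that of Plxnb3, 0.0963 to 0.204. Sema6a was placed 19 of 31 in KO and 21 of 31 in WT, at 3.99 ± 0.563 CPM per kilobase in KO and 2.69 ± 0.0542 in WT (SD, n = 4 each). Its receptor Plxna2 stood at 4.07 ± 0.131 CPM per kilobase in KO and 3.70 ± 0.457 in WT, and Plxna4 at 1.03 ± 0.145 in KO and 1.19 ± 0.231 in WT. Summed over the family, the semaphorins gave 129.8 ± 3.69 CPM per kilobase in KO and 125 ± 7.21 in WT, the plexins 90.4 ± 6.77 in KO and 87.6 ± 11.4 in WT, and the neuropilins 49.4 ± 3.23 in KO and 50.2 ± 4.68 in WT (SD, n = 4 each).

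**Figure D4:**
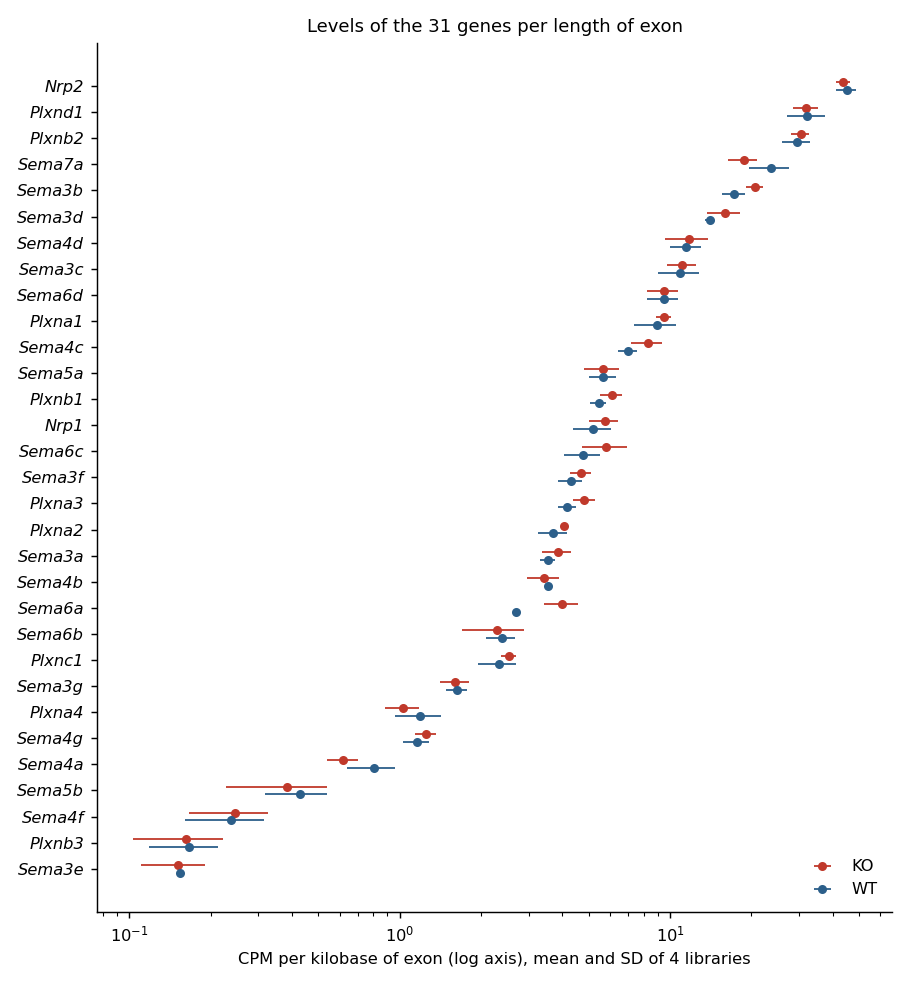
Mean level of each of the 31 genes in KO and WT calvaria, in CPM per kilobase of exon on a log axis with the SD over 4 libraries, ordered by the WT level. Nrp2 is at the top at 43.7 in KO and 45.0 in WT, Sema3e at the bottom at 0.151 in KO and 0.154 in WT.

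Start site sequences are shown for the ends of this order, to let the most and least abundant members be read side by side. The RefSeq promoter table (GRCm38.p6; 250 bases before to 50 after a start) matched 26 of the 31 genes, and 18 of them had a single entry and are used here. The first pair below holds the highest levels per length among those 18 and the second pair the lowest. Each is 5′ to 3′ on the strand of the gene, and capitals mark CpG dinucleotides (CG on either strand). Nrp2 is at chr1:62703067-62703366 on the plus strand, Plxnd1 at chr6:115994956-115995255 on the minus strand, Plxnb3 at chrX:73756853-73757152 on the plus strand and Sema3e at chr5:14025026-14025325 on the plus strand.
Nrp2: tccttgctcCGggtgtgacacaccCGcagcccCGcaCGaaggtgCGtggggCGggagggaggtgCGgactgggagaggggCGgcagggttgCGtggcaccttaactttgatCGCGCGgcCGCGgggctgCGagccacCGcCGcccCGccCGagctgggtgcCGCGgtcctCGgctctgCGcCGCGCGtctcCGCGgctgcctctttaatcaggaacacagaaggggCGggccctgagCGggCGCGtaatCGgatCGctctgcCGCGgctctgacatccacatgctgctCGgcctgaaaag
Plxnd1: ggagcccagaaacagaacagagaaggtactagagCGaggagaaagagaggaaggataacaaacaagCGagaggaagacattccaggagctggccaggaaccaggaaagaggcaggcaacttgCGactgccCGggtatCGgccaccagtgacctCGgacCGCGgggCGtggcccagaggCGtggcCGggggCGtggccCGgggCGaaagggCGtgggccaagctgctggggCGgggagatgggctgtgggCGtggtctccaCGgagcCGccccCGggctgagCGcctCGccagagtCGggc
Plxnb3: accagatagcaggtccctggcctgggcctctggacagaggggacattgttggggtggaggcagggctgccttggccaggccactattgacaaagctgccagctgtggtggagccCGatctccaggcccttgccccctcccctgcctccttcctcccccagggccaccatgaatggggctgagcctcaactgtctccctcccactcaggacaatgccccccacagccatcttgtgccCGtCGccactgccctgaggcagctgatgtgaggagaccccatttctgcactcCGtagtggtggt
Sema3e: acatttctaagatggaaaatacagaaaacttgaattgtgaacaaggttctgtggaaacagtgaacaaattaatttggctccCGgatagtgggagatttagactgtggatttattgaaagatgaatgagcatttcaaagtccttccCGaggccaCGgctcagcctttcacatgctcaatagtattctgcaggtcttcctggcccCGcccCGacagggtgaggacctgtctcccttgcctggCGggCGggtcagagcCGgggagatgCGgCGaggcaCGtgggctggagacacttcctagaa

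The Nrp2 and Plxnd1 windows held 37 and 23 CpG, and the Plxnb3 and Sema3e windows 4 and 11. The median was 23 over the 18 windows and 7 over all 32851 windows of 300 bases in the table, of which 94.6% held at least 1 CpG. Rank order by CpG count and by WT level was only loosely shared, with Spearman's rho of 0.41 across the 18 genes, which are not independent replicates. Abundant Sema3d, with 8 CpG, and scarce Sema5b, with 27, went against it. TATAAA, searched on both strands, was in none of the 18 windows and in 13.6% of all windows, and this says only that these letters are not there.

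Libraries low in muscle markers stood apart for some members. In Sema6c, Sema4f and Sema5b the 3 libraries were below the others of their group, and in Sema4d and Sema3e above them. The first pattern was seen in 8.94% and the second in 8.09% of all tested genes. These 5 of 31 (16.1%) compare with 17.0% for both patterns, so the share was that of the background. Sema4f held 1.26, 1.22, 0.859 and 1.88 CPM in KO replicates 1 to 4 and 1.66, 1.37, 0.693 and 1.33 CPM in WT replicates 1 to 4, at 31 to 74 counts a library. Sema5b held 4.33, 1.88, 2.15 and 2.53 CPM in KO and 2.59, 3.03, 2.37 and 4.14 CPM in WT replicates 1 to 4. Sema6a was not among the 5: KO replicates 2 and 3 held 40.0 and 35.5 CPM and WT replicate 3 held 23.1 CPM.

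**Figure D5:**
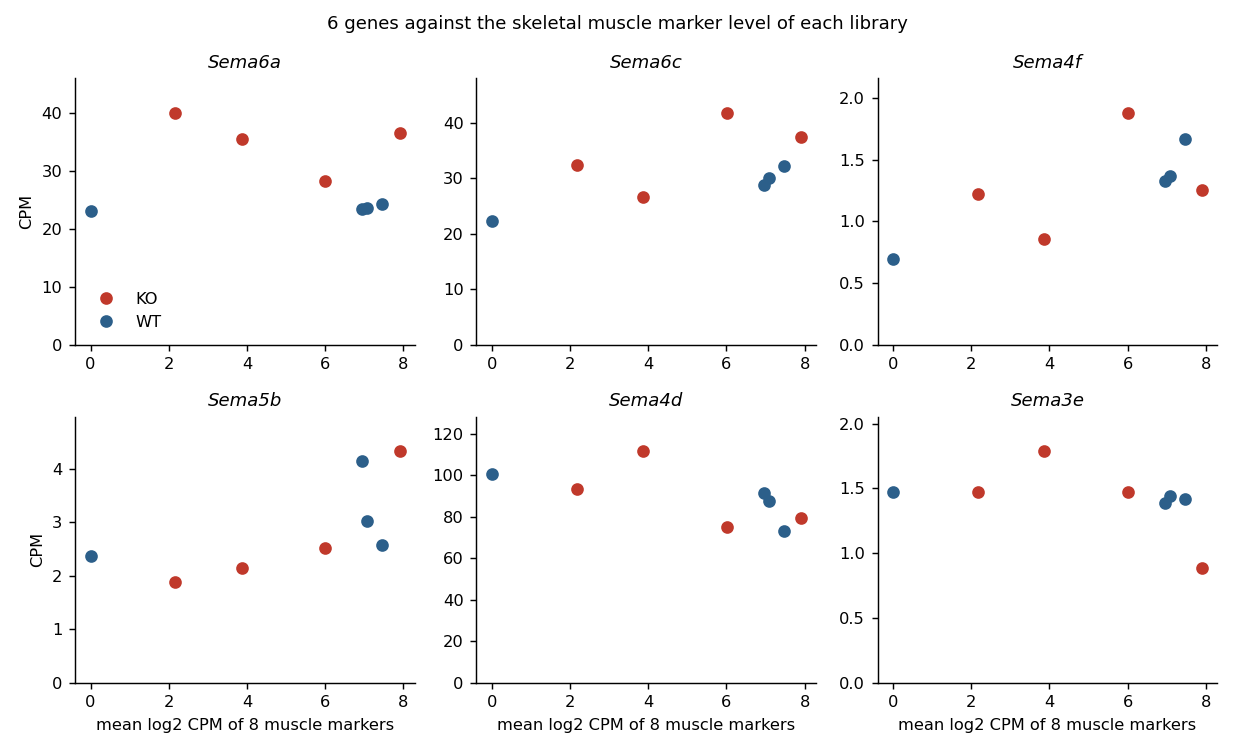
CPM of 6 genes in each library against the mean log2 CPM of 8 skeletal muscle markers, with KO and WT libraries in different colours. Sema6c, Sema4f and Sema5b are lowest, and Sema4d and Sema3e highest, within each group in the libraries low in muscle markers. For Sema6a every KO library lies above every WT library. KO replicates 2, 3 and 4 lie on the axis between WT replicate 3 and the other WT libraries. The genotypes are therefore not compared at matched marker levels over that stretch.

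Genes that work with the receptors did not pass in edgeR either. Of 65 listed genes 64 were tested and none was called by edgeR or limma-voom. In edgeR 14 of the 64 had an unadjusted p under 0.05, against 17.4% of all tested genes. DESeq2 called 7 of the 64, all lower in KO. Of all 17743 tested genes it called 952 (5.37%), 539 of them lower in KO. The 7 were Enah, Rap1a, Mst1r, Pak1, Rnd1, Rap1b and Tyrobp (DESeq2 adjusted p of 0.00151 to 0.0376). The groups were apart with KO higher in 2 of the 64 and with KO lower in 7, against 4.63% and 5.96% of all tested genes. Their median log2 change was -0.02. Among 17 tested partner receptors, the kinase receptor gene Mst1r held 50.2 ± 6.68 CPM in KO and 72.4 ± 16.2 CPM in WT (SD, n = 4 each; log2 change -0.53 ± 0.156, SE, adjusted p = 0.136). Tyrobp and Trem2, the adaptor and receptor that pair with Plxna1 in osteoclasts, had log2 changes of -0.41 ± 0.127 (SE, adjusted p = 0.138) and -0.38 ± 0.166 (SE, adjusted p = 0.268), and Itgav, an integrin subunit, -0.33 ± 0.130 (SE, adjusted p = 0.231). Both Tyrobp and Trem2 are also genes of macrophages, whose marker sums are given above.

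Of 38 cytoplasmic effectors 17 had a log2 change above 0 (median -0.02). Enah, an actin regulator, held 164 ± 8.57 CPM in KO and 203 ± 13.7 CPM in WT (SD, n = 4 each; log2 change -0.31 ± 0.072, SE, adjusted p = 0.0562). The GTPases Rap1a and Rap1b, substrates of the plexin GAP domain, had log2 changes of -0.26 ± 0.0656 (SE, adjusted p = 0.0823) and -0.25 ± 0.075 (SE, adjusted p = 0.124). Rnd1, a GTPase that binds plexins, was at -0.63 ± 0.179 (SE, adjusted p = 0.108) and was called, lower in KO, with the muscle covariate (adjusted p = 0.0304) and without WT replicate 1 (0.0441). Mst1r was called with the muscle covariate as well (adjusted p = 0.0160), and the effector Mical3, higher in KO, without KO replicate 4 (log2 change 0.40, adjusted p = 0.0179). Of 5 VEGF family ligands 1 was above 0, with Vegfc at -0.32 ± 0.139 (SE, adjusted p = 0.264), Vegfd at 0.36 ± 0.193 (0.35), Vegfb at -0.20 ± 0.120 (0.420) and Pgf at -0.11 ± 0.114 (0.648), while Vegfa was at -0.01 ± 0.0590 (0.946). Of 4 proteases that process semaphorins, Mmp14 was at -0.13 ± 0.0711 (SE, adjusted p = 0.387), Adam17 at -0.10 ± 0.0705 (0.511), Furin at 0.05 ± 0.0795 (0.814) and Adam10 at -0.01 ± 0.0682 (0.964).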

How the data were processed

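Whole-tissue RNA of 8 calvaria was sequenced. The authors deposited 1 table of raw counts per Ensembl gene, with no normalization. The submitters' processing notes name STAR 2.5.2b, Subread 1.5.2 with featureCounts, bcl2fastq 2.17 and mm10. For strand setting and annotation release the sources used here give nothing. Groups and replicate numbers came from sample titles and column names. Symbols and positions came from GENCODE release M21 (GRCm38/mm10) for 49056 of 49315 IDs.

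edgeR's filterByExpr (minimum count 10, minimum total 15) left 17743 genes with 99.9% of counts. KO was compared with WT by edgeR 4.0.16 (R 4.3.3; TMM factors 0.972 to 1.04, robust quasi-likelihood test, two-sided, Benjamini-Hochberg, threshold 0.05). SE is the log2 change over the square root of F. All members passed the filter, so the exact permutation test planned for low genes was not used. The test was also run on simulated counts, and its recovery of changes there is not reported here. In a 35.4 M library 1 count is 0.0283 CPM and the floor of 3 counts 0.0848 CPM, which covers counting error only. Replicates differed by more than sampling noise (chi-square per degree of freedom 10.2 to 51.2).

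Full values go to Sema6a, Plxna2, Plxna4 and the 12 members of smallest p, levels to the 5 highest per kilobase, and from other lists to the 4 of smallest p; values of further members were added after they were seen. Members and lists were chosen with earlier results of these data known. Alternatives were RLE factors, library totals, filters, DESeq2 1.42.0, limma-voom (limma 3.58.1), a replicate block, a muscle covariate (mean log2 CPM, prior count 2) and each library left out. Figures used matplotlib 3.10.9. The Schwann cell marker list is not reported here.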

Additional observations from a re-analysis of the deposited data

Results flagged for a closer look

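Plxnb3 stood at 1.63 CPM in KO replicate 4, against 0.813 to 0.940 CPM in the other 3 KO libraries, a gap wide for a group of 4. Reads fell in 28520 genes in KO replicate 4, the shallowest library, and in 24545 to 25729 genes in the other 7, and the part of this in the value was not tested. It was the only such library among 62 groups of 4 looked at, where chance alone gives about 3.1.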

How the results depend on the processing

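Sema6a kept its direction under all 17 alternatives (log2 change 0.51 to 0.67 with 1 library left out). Without the 3 libraries low in muscle markers it was 0.45 and the members' count was 0, against 1; with 1 library left out that count was 0 or 1. Over all genes 234 were called, against 355 with no filter, 952 with DESeq2, 126 with the replicate block, 572 at an adjusted p under 0.1, 8 without the 3 libraries, and 57 to 608 with 1 left out (57 without KO replicate 2, 608 without KO replicate 4). With library totals alone the split was 113 higher and 99 lower. Of the pathway genes 0 were called, against 7 with DESeq2, 2 with the muscle covariate, 2 at 0.1 and 0 to 1 with 1 library left out. The cause of these changes was not tested.

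Of the 31 members 16 kept their direction under every alternative, Sema6a among them, and the others, none of them called, changed sign at least once. With library totals alone log2 changes that changed sign were 0.0098 for Nrp2, 0.021 for Plxnb3, 0.035 for Plxnd1, 0.031 for Sema3e, 0.034 for Sema3g, 0.0046 for Sema4b, 0.040 for Sema5a and 0.050 for Sema6d. Sema6d was at 0.0059 with RLE factors, 0.0059 with DESeq2 and 0.010 with the 1 CPM filter, where Sema5a was at 0.0024. Without the 3 libraries those that changed sign were 0.24 for Plxnb3, 0.084 for Plxnd1, -0.013 for Sema3a, 0.18 for Sema3g, -0.11 for Sema4d, 0.079 for Sema5a, 0.087 for Sema5b, 0.17 for Sema6b and 0.032 for Sema6d. Leaving out 1 library gave -0.089 to 0.0039 for Nrp2, -0.010 to 0.13 for Plxnb2, -0.31 to 0.079 for Plxnb3, -0.091 to 0.090 for Plxnd1, -0.046 to 0.12 for Sema3c, -0.17 to 0.14 for Sema3e, -0.085 to 0.046 for Sema3g, -0.094 to 0.051 for Sema4b, -0.092 to 0.11 for Sema4d, -0.17 to 0.20 for Sema4f, -0.098 to 0.076 for Sema5a, -0.48 to 0.030 for Sema5b, -0.23 to 0.051 for Sema6b and -0.061 to 0.090 for Sema6d.

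The labels name no pairing by replicate number. Deviations of same-numbered libraries correlated at 0.26, -0.18, 0.34 and -0.00498, and 1 KO library, replicate 3, correlated best with its own number. These correlations over all genes cannot show whether same-numbered mice shared a litter or handling, because muscle content also varied within each group. With the replicate block Sema6a was at 0.56 (adjusted p = 0.0420). Sema4f, Plxnb3 and Sema3e had the fewest counts (26 to 83 a library), with SE of 0.300, 0.302 and 0.225, and Sema5b, at 93 to 200 counts, had an SE of 0.268; the parts of depth and of replicate spread in these errors were not tested.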
